A study of Mus musculus with 38 samples.

Results

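The interleukin 1 family of cytokines is represented in skin by 10 transcripts, which were picked by symbol: the agonists Il1a, Il1b, Il36a, Il36b and Il36g, the cytokines Il18 and Il33, the receptor antagonists Il1rn and Il36rn, and Il1f10. The deposited table held all 10, among 19218 genes used. Tail skin of mice had been sequenced in bulk in 38 libraries of 6 groups, to ask how skin changes in a vitiligo model, after gut microbes are depleted, and after injection of hippuric acid. The group vitiligo_ABX (6 libraries) had vitiligo induced and was treated with ABX, and the group vitiligo (9 libraries) had induction alone. The group no_induction_ABX (6 libraries) was wild type and treated with ABX, hippuric_acid (5 libraries) was wild type and injected intraperitoneally with hippuric acid, vehicle (3 libraries) was wild type and given the vehicle by the same route, and no_induction (9 libraries) was labelled wild type with no other treatment. Strain, age, sex, dose, timing and the way vitiligo was induced are not given in the sources used here. The labels do not say whether each library was a different mouse, and p-values therefore reflect only how far libraries of a group spread, which may be technical.

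Cytokines of this family are alarm signals of barrier tissues. Keratinocytes store IL-1α and IL-33 in an active or nearly active form and release them when damaged, whereas IL-1β and IL-18 are made as precursors that caspase-1 cleaves inside an inflammasome. The IL-36 cytokines come mostly from the upper, differentiated layers of the epidermis and act back on keratinocytes through their own receptor. The antagonists encoded by Il1rn and Il36rn occupy the receptors without signalling, and loss of either in humans causes pustular inflammation of skin. IL-38, the product of Il1f10, has been described as an antagonist, mainly from work with the human protein. The signalling receptors of the family act through Myd88 and Irak kinases on NF-kB.

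In no_induction skin, the transcript level per exon length was highest for Il36b (mean 40.0 CPM per kb, that is CPM, the count scaled to library size, divided by exon length) and Il36rn (38.2). Il18 stood at 32.4, Il36g at 29.2, Il1f10 at 24.8 and Il36a at 23.2 CPM per kb. Il33 (14.8), Il1rn (9.79) and Il1a (8.34) were lower, and Il1b was lowest at 0.648 CPM per kb. Il1b was the member at the limit of detection: it lay under 1 CPM in 13 of 38 libraries, with as few as 5 counts in 1 library, and its mean in no_induction_ABX was 0.769 CPM. Il1f10 fell under 1 CPM in 1 library (no_induction_ABX 005, 0.886 CPM), and the other 8 members stayed above 1 CPM in every library. All 10 passed the count filter in every comparison. Over the 38 libraries Il33 varied least, with a highest library 1.95 times the lowest, and Il1b most (65.4 times), followed by Il1f10 (24.2 times) and Il36a (13.8 times).

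Most of the family sits in a row. In the RefSeq annotation of mouse assembly GRCm38.p6, Il36b, Il36g, Il36a, Il36rn, Il1f10 and Il1rn are consecutive protein-coding genes on chromosome 2, and Il1a and Il1b are adjacent to each other further along it. Il18 lies on chromosome 9 and Il33 on chromosome 19. RefSeq promoters (250 bases before to 50 after an annotated start) were matched for 9 members with 13 start sites, with none for Il36a. They were searched on both strands for the AP-1 site TGANTCA, the NF-kB site GGGNNTTTC and the TATA box TATAAA, which do not overlap one another in these windows. The AP-1 letters stood in the windows of Il1a, Il1rn (first start site) and Il36b, and 7.81% of 32851 promoters of the same length held them. The NF-kB letters stood at Il18 and at the other 2 start sites of Il1rn (4.36% of all promoters). The windows of those 2 start sites overlap and share the same site, so they are not separate matches. TATAAA stood at Il1a, Il1b, Il18, Il33 and the last start site of Il1rn (13.6%). No match was found at Il36g, at either start site of Il36rn or at Il1f10, which says only that these letters are not in the windows. The promoters of 4 neighbouring genes are printed because 3 of them (Il36b, Il36g and Il1rn) were lower together in hippuric_acid skin while Il1f10, between them, was not called there. Capitals mark the AP-1 letters, which begin at position -236 of Il36b and -141 of Il1rn, counted from 0 at the annotated start.
Il36b (chr2:24152922-24153221, plus strand): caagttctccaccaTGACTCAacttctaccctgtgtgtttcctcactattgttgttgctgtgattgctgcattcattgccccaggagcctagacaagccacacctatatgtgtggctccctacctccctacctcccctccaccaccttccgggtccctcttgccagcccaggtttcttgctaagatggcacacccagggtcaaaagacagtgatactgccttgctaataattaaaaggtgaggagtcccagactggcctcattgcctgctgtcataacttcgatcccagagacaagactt
Il36g (chr2:24186226-24186525, plus strand): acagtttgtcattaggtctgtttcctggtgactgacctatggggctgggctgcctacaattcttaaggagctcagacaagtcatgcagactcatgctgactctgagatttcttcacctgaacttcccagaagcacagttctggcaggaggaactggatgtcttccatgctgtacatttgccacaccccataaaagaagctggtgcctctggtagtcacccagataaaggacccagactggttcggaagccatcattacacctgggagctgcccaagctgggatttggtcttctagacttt
Il1f10 (chr2:24290946-24291245, plus strand): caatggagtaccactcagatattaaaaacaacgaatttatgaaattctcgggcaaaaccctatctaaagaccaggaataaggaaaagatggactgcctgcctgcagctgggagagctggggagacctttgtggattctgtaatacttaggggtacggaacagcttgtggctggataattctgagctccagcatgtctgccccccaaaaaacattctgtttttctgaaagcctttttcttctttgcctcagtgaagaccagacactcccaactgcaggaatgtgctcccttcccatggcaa
Il1rn, first start site (chr2:24336610-24336909, plus strand): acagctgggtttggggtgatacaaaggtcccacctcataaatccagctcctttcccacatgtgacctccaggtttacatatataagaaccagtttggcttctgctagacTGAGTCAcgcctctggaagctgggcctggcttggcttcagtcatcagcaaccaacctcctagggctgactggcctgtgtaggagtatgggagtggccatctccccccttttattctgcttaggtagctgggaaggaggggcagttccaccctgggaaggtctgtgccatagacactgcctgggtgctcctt

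Hippuric acid gave the broadest difference in the family. edgeR called 7 of the 10 transcripts in hippuric_acid against vehicle, all of them lower, at 13.8% of all genes tested called in that comparison. The median log2 fold change of the 10 was -1.22, against 0.02 over all genes. In 7 of 10 the 2 groups did not overlap, as in 21.5% of all genes tested. ABX without induction came next, with 5 of 10 called in no_induction_ABX against no_induction, all lower, at 31.1% of all genes called, and a median of -0.64 against -0.0021 over all genes. The share of the family called stands closer to that background than with hippuric acid. In vitiligo_ABX against vitiligo 1 of 10 was called (13.1% of all genes), with a median of -0.50 against 0.02. The other comparisons called few or none. In vitiligo_ABX against no_induction_ABX 1 of 10 was called, higher (4.97% of all genes). In vitiligo against no_induction edgeR called 0 of 10 (7.74% of all genes), 1 had an unadjusted p under 0.05, and the count was 0 by DESeq2 (12.6% of all genes) and 2 by limma-voom (42.6% of all genes, so that 2 of 10 is below that background). In vehicle against no_induction it called 0 of 10 (0% of all genes, 509 at an unadjusted p under 0.05), again with 1 member under an unadjusted 0.05, and DESeq2 (0.0494% of all genes) and limma-voom (0.0212%) also called 0 members. The difference between the ABX effects with and without induction was called for 1 of 10 members (11.5% of all genes). No member was without overlap in vitiligo_ABX against vitiligo (2.7% of all genes), in vitiligo against no_induction (0.774%) or in vehicle against no_induction (0.684%). The comparisons with no_induction share its 9 libraries, and in bulk skin fewer cells of a type and less RNA per cell cannot be told apart.

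**Figure D1:**
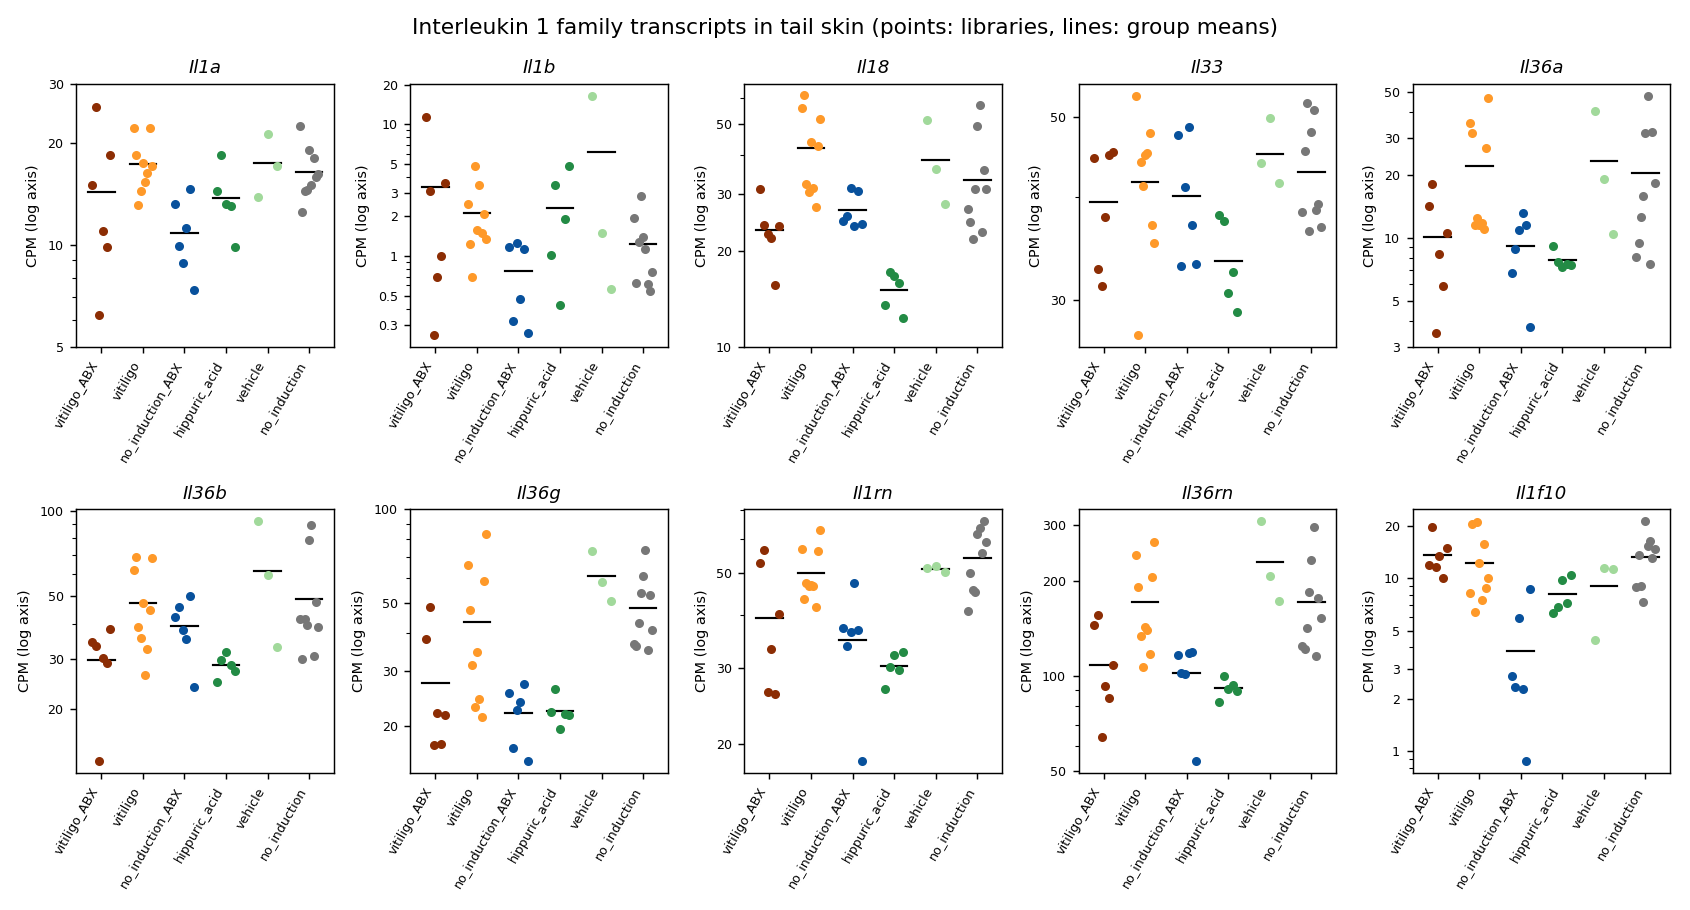
Level of each transcript in CPM (log axis) in the 38 libraries of 6 groups; points are libraries and lines are group means. In the hippuric_acid libraries Il36g, Il36rn, Il18 and Il1rn lie below all 3 vehicle libraries, and Il1f10 is lowest in no_induction_ABX.

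Some genes outside the family set libraries apart. Hoxb13, a gene of posterior body identity, lay at 13.8 to 37.7 CPM in the 17 libraries given ABX or hippuric acid and at 0.323 to 12.3 CPM in the other 21. Cohort is not labelled, so it cannot be told apart from ABX or hippuric acid in any comparison of treated with untreated skin. Ddx3y, a Y-linked gene, was at 58.0 to 71.5 CPM in 3 libraries (no_induction 011 and 012 and vehicle 001) and at most 0.116 CPM elsewhere. These 3 libraries were among those with high Il36a and Il36rn, and they and vitiligo 000 and 260 also had the 5 highest levels of gastrointestinal markers. Totals ran from 15341838 to 27920853 counts per library.

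The IL-36 agonists, which stimulate keratinocytes and dendritic cells, were lower in hippuric_acid skin. Il36g was at 22.2, 26.4, 19.6, 21.9 and 21.8 CPM in hippuric_acid, against 73.5, 58.3 and 50.5 CPM in vehicle. Every vehicle library was above every hippuric_acid library, and the log2 fold change was -1.44 ± 0.14 (SE), with an edgeR adjusted p of 0.000492. Il36a was at 9.14, 7.70, 7.26, 7.51 and 7.37 CPM in hippuric_acid, against 40.4, 19.2 and 10.4 CPM in vehicle. The groups did not overlap, but vehicle 001 lay far above the other 2, and the log2 difference of Il36a, -1.59 ± 0.33 (adjusted p = 0.0138), became -0.90 without that library (adjusted p = 0.0124). Il36b was at 24.9, 29.7, 31.7, 28.6 and 27.2 CPM in hippuric_acid, against 91.9, 59.5 and 32.9 CPM in vehicle. Here too there was no overlap, with vehicle 003 close to the highest hippuric_acid library. Its log2 fold change was -1.12 ± 0.25 (adjusted p = 0.0182), and -0.68 without vehicle 001 (adjusted p = 0.0313). The call of Il36b was lost by limma-voom (adjusted p = 0.0502), and that of Il36a with all 38 libraries in one fit (adjusted p = 0.0546).

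With ABX the agonists divided. Il36g had a lowest, median and highest value of 15.4, 23.2 and 27.4 CPM in no_induction_ABX, against 35.2, 43.1 and 73.8 CPM in no_induction. It was the only one of the 10 whose groups did not overlap in this comparison (7.16% of all genes), and fell, with a log2 difference of -1.12 ± 0.18 (adjusted p = 0.000289). Il36a had 3.74, 9.85 and 13.2 CPM in no_induction_ABX and 7.52, 15.9 and 48.2 CPM in no_induction. The groups overlapped, and its log2 fold change of -1.15 ± 0.43 missed the threshold in edgeR (adjusted p = 0.0545) and passed in DESeq2 (adjusted p = 0.0285, with 34.5% of all genes called). Il36b was at 23.9, 40.0 and 49.9 CPM in no_induction_ABX, against 29.9, 41.4 and 89.1 CPM in no_induction, with medians close together and -0.31 ± 0.24 in log2 fold change (adjusted p = 0.351).

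In induced skin edgeR called none of the 3 agonists. Il36a had 3.49, 9.43 and 18.1 CPM in vitiligo_ABX, against 11.1, 12.5 and 46.7 CPM in vitiligo (lowest, median and highest), or -1.13 ± 0.40 on the log2 scale with adjusted p = 0.0692. The vitiligo group itself was split for this gene: 5 libraries (006, 039, 047, 062 and 063) lay between 11.1 and 12.5 CPM, and the other 4 between 26.9 and 46.7 CPM. The same 4 libraries stood above the other 5 for Il36g (47.5 to 83.1 CPM, against 21.4 to 34.5 CPM) and Il36rn (191 to 265 CPM, against 107 to 143 CPM). The split was not particular to IL-36 genes. The mean log2(CPM + 1) of 11 suprabasal keratinocyte markers was 9.84 to 10.15 in these 4 and 9.22 to 9.69 in the other 5. Il36b (-0.67 ± 0.23, adjusted p = 0.0676) and Il36g (-0.65 ± 0.32, adjusted p = 0.185) had lower means in vitiligo_ABX as well, with overlapping groups. DESeq2, which called 17.4% of all genes there, called Il36b (adjusted p = 0.0276), and limma-voom, which called 31.4%, called Il36b (adjusted p = 0.0321) and Il36a (adjusted p = 0.0332). Induction alone gave log2 fold changes of 0.14 ± 0.38 for Il36a, -0.02 ± 0.22 for Il36b and -0.12 ± 0.24 for Il36g in vitiligo against no_induction, each smaller than its error.

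Il36rn, the antagonist of the same receptor and the member with the highest mean CPM, followed the agonists. It was at 82.7, 99.8, 91.0, 93.4 and 89.3 CPM in hippuric_acid, against 309, 207 and 173 CPM in vehicle. No library of hippuric_acid reached the lowest of vehicle, and Il36rn fell, with a log2 difference of -1.33 ± 0.16 (adjusted p = 0.00107). It had 53.9, 109 and 119 CPM in no_induction_ABX, against 116, 152 and 296 CPM in no_induction. The ranges touched only at the edge, and Il36rn was called lower (-0.75 ± 0.22, adjusted p = 0.0166). In vitiligo_ABX it had 64.1, 101 and 156 CPM, against 107, 143 and 265 CPM in vitiligo, or -0.66 ± 0.22 in log2 terms, which missed the threshold in edgeR (adjusted p = 0.0595) and passed in DESeq2 (adjusted p = 0.0220). The CPM of Il36rn divided by the summed CPM of the 3 agonists, which is not a ratio of molecules, averaged 1.56 ± 0.05 in hippuric_acid and 1.62 ± 0.19 in vehicle (SD). It averaged 1.64 ± 0.13 in vitiligo_ABX and 1.60 ± 0.29 in vitiligo, and 1.44 ± 0.14 in no_induction_ABX and 1.49 ± 0.12 in no_induction. The means of each pair differed by less than the larger of their SDs.

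Of the IL-1 pair, Il1a was lower with ABX in uninduced skin. It had 7.37, 10.6 and 14.6 CPM in no_induction_ABX, against 12.5, 15.8 and 22.5 CPM in no_induction (lowest, median and highest). The ranges overlapped in part, and the log2 fold change was -0.59 ± 0.15 (adjusted p = 0.00732). Il1a was not called with hippuric acid, at 14.5, 18.5, 13.2, 13.0025 and 9.85 CPM in hippuric_acid, against 13.9, 21.3 and 17.1 CPM in vehicle (-0.34 ± 0.20, adjusted p = 0.287). It was not called in vitiligo_ABX against vitiligo either (-0.28 ± 0.23, adjusted p = 0.445), where vitiligo_ABX held both the lowest (6.22 CPM) and the highest (25.5 CPM) of the 38 libraries. Il1b, the inducible cytokine of myeloid cells, had its highest values in single libraries. It reached 16.5 CPM in vehicle 001 and 11.3 CPM in vitiligo_ABX 001, and at most 4.86 CPM in any other library. Those 2 libraries also had high S100a8, a neutrophil and stressed keratinocyte gene (98.5 and 101 CPM, against medians of 6.56 in vehicle and 10.8 in vitiligo_ABX). High S100a8 was not limited to them, at 85.3 CPM in vitiligo 039, 76.2 CPM in vitiligo 000 and 75.4 CPM in no_induction 012. Il1b was called in none of the 7 comparisons, with log2 fold changes of 2.10 ± 0.78 in vitiligo_ABX against no_induction_ABX (adjusted p = 0.141) and 0.82 ± 0.36 in vitiligo against no_induction (adjusted p = 0.157). In hippuric_acid against vehicle its log2 fold change was -1.43 ± 0.97 (adjusted p = 0.364), and 1.22 without vehicle 001 (adjusted p = 0.397). By limma-voom Il1b passed in vitiligo against no_induction (1.22, adjusted p = 0.00694).

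Il1rn, which blocks the IL-1 receptor, was lower with both treatments of wild type mice. It was at 26.8, 30.1, 32.2, 29.8 and 32.8 CPM in hippuric_acid, against 51.4, 51.8 and 50.2 CPM in vehicle. Both groups were tight and far apart, and Il1rn fell, with a log2 difference of -0.75 ± 0.10 (adjusted p = 0.00127). It had 18.3, 36.7 and 47.3 CPM in no_induction_ABX, against 40.9, 55.6 and 66.0 CPM in no_induction. Of the ABX libraries only 004 exceeded the lowest no_induction library, and the log2 fold change was -0.62 ± 0.16 (adjusted p = 0.00768). Il1rn had 26.0, 36.7 and 56.6 CPM in vitiligo_ABX, against 41.7, 47.01 and 62.99 CPM in vitiligo, which overlapped, and was not called (-0.35 ± 0.16, adjusted p = 0.164).

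Il18, whose product drives interferon production by lymphocytes, was the only member that edgeR called with ABX in induced skin. It had 15.6, 23.2 and 31.2 CPM in vitiligo_ABX, against 27.4, 42.4 and 61.5 CPM in vitiligo. The ranges met between 27.4 and 31.2 CPM, where 1 vitiligo_ABX library lay, and Il18 fell, with a log2 difference of -0.85 ± 0.19 (adjusted p = 0.00678). The call held without any 1 of the 15 libraries (adjusted p from 0.00388 to 0.0180). With hippuric acid Il18 was lower as well, at 13.5, 17.1, 16.6, 15.9 and 12.3 CPM in hippuric_acid, against 51.3, 36.0 and 27.9 CPM in vehicle, with no overlap. That log2 fold change was -1.35 ± 0.18 (adjusted p = 0.00157). In uninduced skin Il18 had 23.9, 25.2 and 31.3 CPM in no_induction_ABX, against 21.8, 31.2 and 57.0 CPM in no_induction, and was not called (-0.31 ± 0.19, adjusted p = 0.232). The difference between the ABX effects with and without induction was -0.55 ± 0.28 for Il18 and was not called (adjusted p = 0.198). Without no_induction 011 and 012, the libraries of these groups with Y-linked transcripts, that difference was -0.82 (adjusted p = 0.0221). Il18 was then also higher in vitiligo than in no_induction (0.61, adjusted p = 0.0306). With all libraries, vitiligo against no_induction gave 0.35 ± 0.19 for Il18 (adjusted p = 0.259).

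Il33, a nuclear alarm cytokine, varied least over the libraries. It was at 38.1, 37.4, 30.6, 32.4 and 29.0 CPM in hippuric_acid, against 44.0, 49.9 and 41.5 CPM in vehicle. The groups did not overlap, and the log2 fold change was -0.43 ± 0.12 (adjusted p = 0.0361). That call was lost without vehicle 002 or hippuric_acid 3, 4 or 5 (adjusted p up to 0.0882), and by limma-voom (adjusted p = 0.0567). In the other 5 comparisons of pairs of groups the log2 fold change of Il33 lay between -0.09 and 0.08, and none was called. Il1rl1, the gene of the IL-33 receptor ST2, went the other way. It was at 42.6, 35.7, 41.8, 26.4 and 36.4 CPM in hippuric_acid, against 18.2, 14.6 and 12.5 CPM in vehicle, 1.27 ± 0.18 in log2 fold change (adjusted p = 0.00179). It was also higher in no_induction_ABX (24.2 to 76.5 CPM) than in no_induction (6.29 to 25.4 CPM), by 1.49 ± 0.31 (adjusted p = 0.00211), and in vitiligo_ABX (15.7 to 40.8 CPM) than in vitiligo (4.14 to 20.96 CPM), by 0.99 ± 0.28 (adjusted p = 0.0249). The difference of Il1rl1 with ABX between induced and uninduced skin was not called (adjusted p = 0.471).

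**Figure D2:**
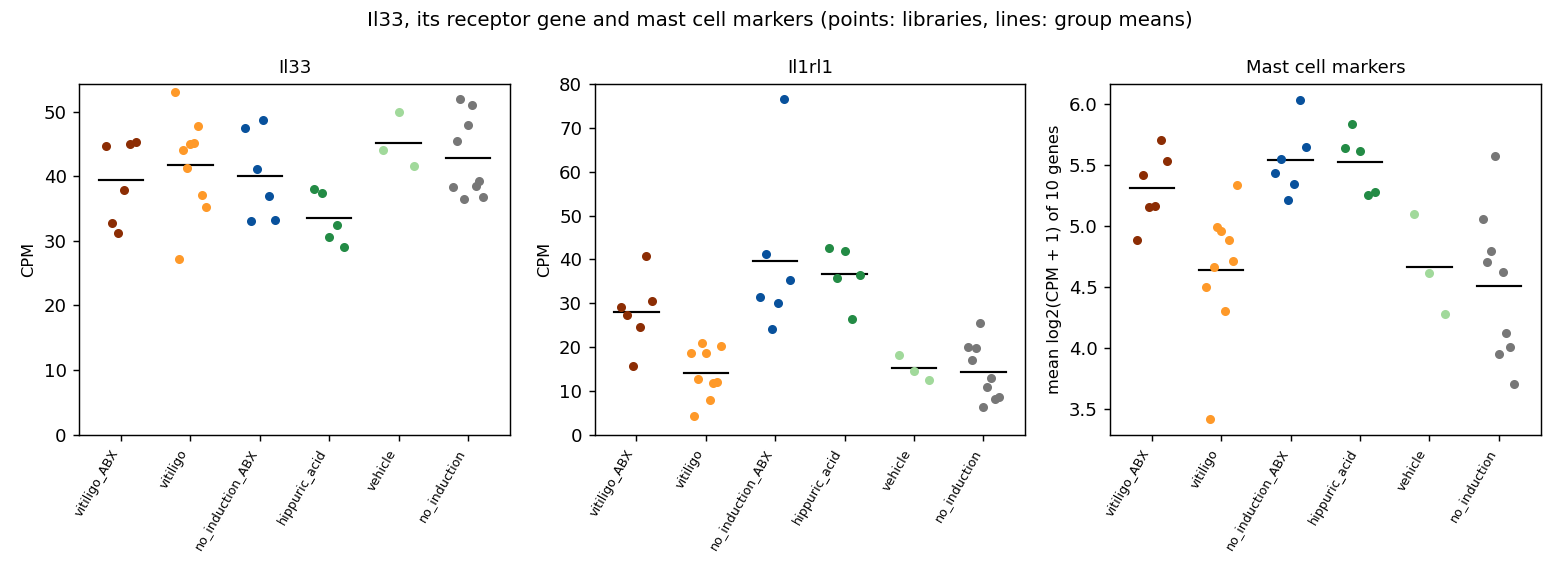
CPM of Il33 (left), CPM of its receptor gene Il1rl1 (middle) and the mean log2(CPM + 1) of 10 mast cell markers (right) by group; points are libraries and lines are group means. Il33 spans 27.2 to 53.1 CPM over all groups, while Il1rl1 lies at 15.7 to 76.5 CPM in the 17 libraries given ABX or hippuric acid, against 4.14 to 25.4 CPM in the other 21.

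Mast cells, which carry ST2, shared that pattern with hippuric acid and with ABX in uninduced skin. Of 10 mast cell markers edgeR called 6 higher in hippuric_acid against vehicle (13.8% of all genes called). It called 8 higher in no_induction_ABX against no_induction (31.1%). In vitiligo_ABX against vitiligo 1 was called higher, below the 13.1% of all genes, with a median log2 fold change of 0.62. None of the markers was called lower in these comparisons, and 1 was lower in vitiligo_ABX against no_induction_ABX (4.97% of all genes). Their summed level ran from 712 to 1087 CPM in hippuric_acid and 370 to 739 CPM in vehicle, from 771 to 1196 CPM in no_induction_ABX and 251 to 1022 CPM in no_induction, and from 631 to 996 CPM in vitiligo_ABX and 207 to 827 CPM in vitiligo. None of the 10 was at 0 throughout a group. Over the 38 libraries Pearson's r between Il1rl1 and the mean log2(CPM + 1) of these markers was 0.92, and 0.85 for deviations from the group means. The log2(CPM + 1) of Il1rl1 minus that level averaged -0.31 ± 0.24 in hippuric_acid and -0.67 ± 0.16 in vehicle, and -0.29 ± 0.29 in no_induction_ABX and -0.69 ± 0.28 in no_induction (SD). The part of mast cells in the Il1rl1 result was not tested.

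Il1f10 was called lower with ABX in uninduced skin but not in induced skin, and the difference itself passed its test. It had 0.886, 2.55 and 8.72 CPM in no_induction_ABX, against 7.33, 13.6 and 21.4 CPM in no_induction (lowest, median and highest). Only no_induction_ABX 006 exceeded the lowest no_induction library, and Il1f10 fell, with a log2 difference of -1.80 ± 0.38 (adjusted p = 0.00240). In induced skin it was not called, with 10.03, 12.8 and 19.7 CPM in vitiligo_ABX, against 6.42, 10.1 and 21.1 CPM in vitiligo (0.15 ± 0.26, adjusted p = 0.735). The test of the difference between the 2 ABX effects gave 1.94 ± 0.47 (adjusted p = 0.00789), and its call held without any 1 of the 30 libraries (adjusted p from 0.00150 to 0.0202). Under ABX, vitiligo_ABX lay above no_induction_ABX with no overlap, as in 3.34% of all genes, by 1.85 ± 0.41 (adjusted p = 0.0244). That call was lost without vitiligo_ABX 001, 002 or 004 or no_induction_ABX 001, 002 or 004 (adjusted p up to 0.0714), while the log2 fold change stayed between 1.63 and 2.28 without any 1 library. With hippuric acid Il1f10 was at 6.28, 6.85, 9.80, 7.19 and 10.5 CPM, against 4.41, 11.4 and 11.3 CPM in vehicle, and was not called (-0.15 ± 0.30, adjusted p = 0.779).

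**Figure D3:**
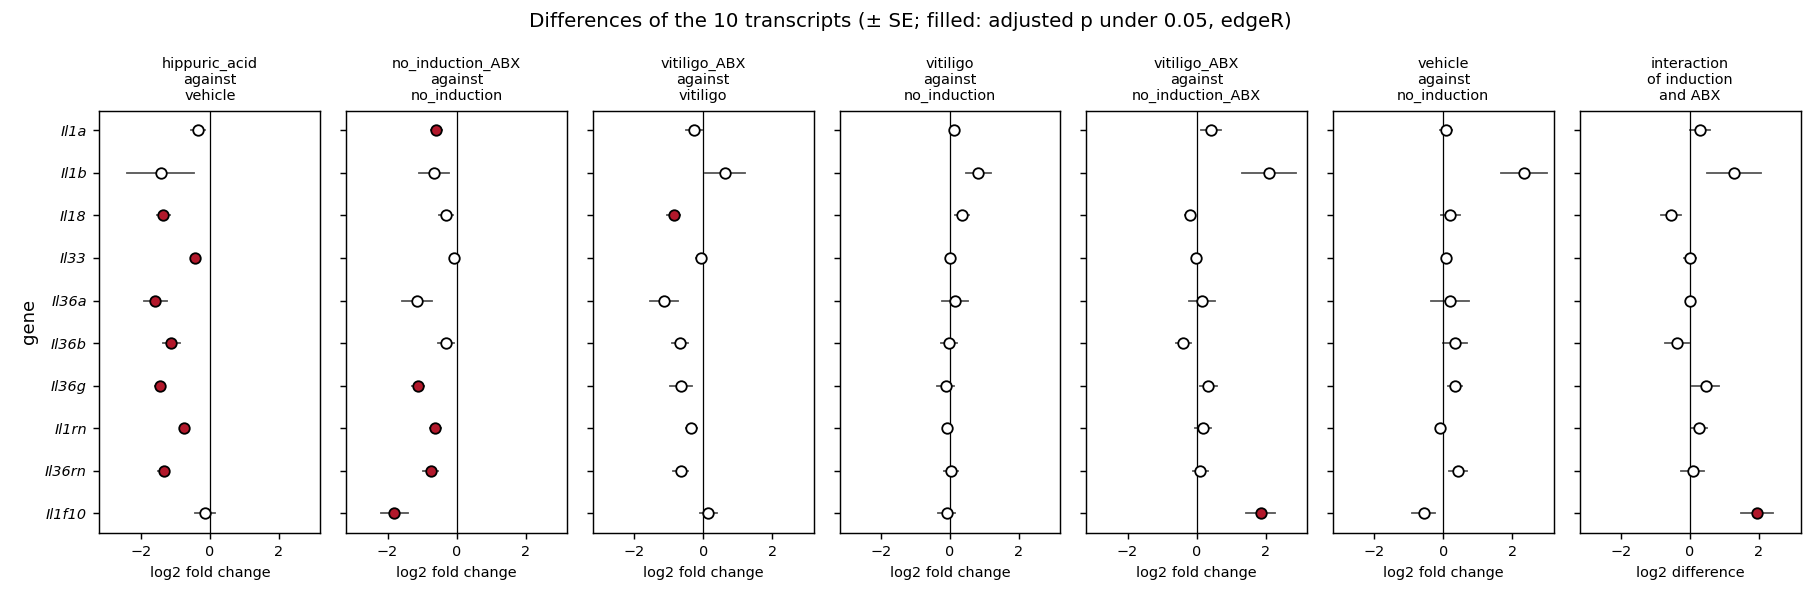
Log2 fold change (± SE) of each transcript in 6 comparisons of pairs of groups and, at the right, the difference between the ABX effects with and without induction; filled points had an edgeR adjusted p under 0.05, and the error of Il36a at the right is not drawn, because it is a quotient of values near 0. Filled points lie left of 0 for 7 genes with hippuric acid and 5 with ABX in uninduced skin, and Il1f10 is the only one filled to the right of 0.

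Hair follicle genes shared the pattern of Il1f10. By Pearson's r of log2(CPM + 1) over the 38 libraries, among 13180 genes of at least 1 CPM on average, the genes most like it were Bhlha9 (0.96), Krtap17-1 (0.95), a keratin-associated protein of the hair shaft, and Cystm1 (0.95). Krtap genes have near-identical copies whose counts may be shared. Of 13 hair follicle markers 13 were lower in no_induction_ABX against no_induction (31.1% of all genes called). In the difference between the ABX effects 12 were higher (11.5%). In vitiligo_ABX against no_induction_ABX 4 of the markers were higher (4.97%), and in hippuric_acid against vehicle none was called (13.8%). None was called in vitiligo_ABX against vitiligo either (13.1%), and 2 were lower in vitiligo against no_induction (7.74%). Their summed level was 1245 to 6609 CPM in no_induction_ABX and 4938 to 16794 CPM in no_induction, and 6822 to 16969 CPM in vitiligo_ABX and 3263 to 11242 CPM in vitiligo. No marker was at 0 throughout a group. Pearson's r of Il1f10 with the mean level of this list was 0.81 (0.76 for deviations from group means), against 0.08 with 11 suprabasal keratinocyte markers. The label epidermal thus goes against the pattern of Il1f10 in these libraries. Its log2(CPM + 1) minus the hair follicle level averaged -5.06 ± 0.58 in no_induction_ABX and -4.85 ± 0.38 in no_induction (SD). In induced skin it averaged -4.90 ± 0.33 in vitiligo_ABX and -4.36 ± 0.44 in vitiligo. In hippuric_acid it ran from -5.54 to -5.10, against -4.96 to -4.61 in vehicle, without overlap, and no share over all genes was taken. The part of hair follicles in the Il1f10 result was not tested.

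The IL-36 genes and Il18 went instead with genes of the outer epidermis. Il36rn correlated most with Il36g (r = 0.94), Il36a (0.93) and Glrx (0.93), and Il36a with Il36rn, Sprr2d (0.92), a protein of the cornified envelope, and Serpinb3a (0.89). Il36g was most like Il36rn, Klk11 (0.91), a kallikrein protease, and Cysrt1 (0.91), and Il36b like Serpinb12 (0.89), Kctd4 (0.87) and Il36rn (0.85). For Il18 the closest were Csta1 (0.95), Lce6a (0.95) and Lce1e (0.92), the last 2 of the late cornified envelope. Il1rn was closest to Tmem40 (0.92), Anxa9 (0.92) and Klk7 (0.91), a protease of shedding corneocytes. Likeness was weaker for the rest: Il1a with Ifrd1 (0.81), Plcxd2 (0.81) and Tmprss11f (0.79), Il33 with Slc35f5 (0.69), Ano1 (0.65) and Cyp2b10 (0.64), and Il1b with Slfn4 (0.64) and S100a9 (0.63). Between members, r was 0.75 to 0.94 among the 4 IL-36 genes and at most 0.30 between Il1f10 and any other. These values describe 38 libraries that share groups and a depth scaling.

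**Figure D4:**
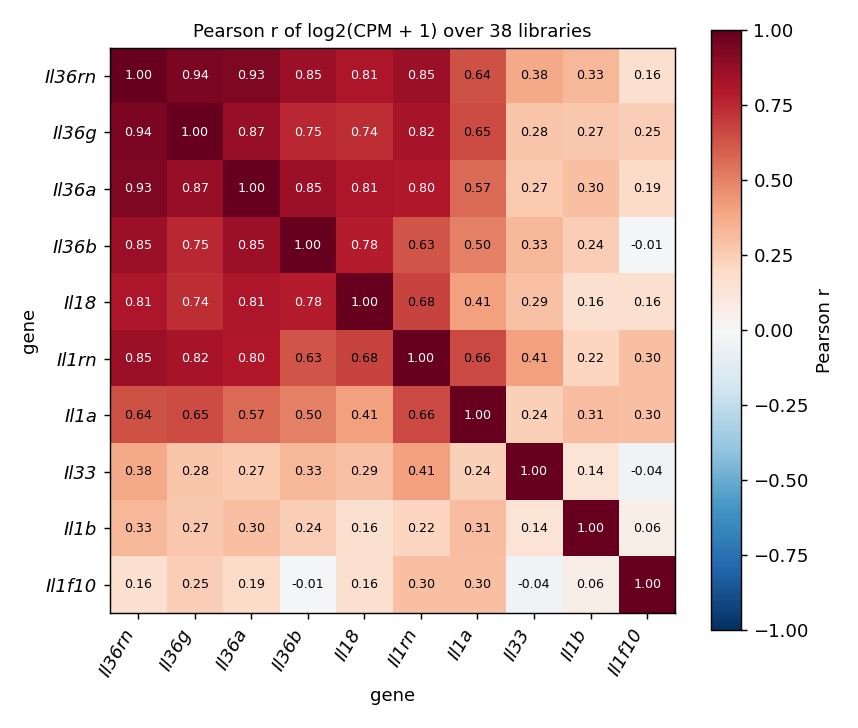
Pearson's r between the log2(CPM + 1) of each pair of transcripts over 38 libraries. Il36rn, Il36g, Il36a, Il36b, Il18 and Il1rn form a block with r from 0.63 to 0.94, and Il1f10 has r from -0.04 to 0.30 with the other 9.

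Suprabasal keratinocyte markers moved with these members. Of 11 measured, among them Krt1, Krt10 and Ivl, edgeR called 9 lower in hippuric_acid against vehicle (13.8% of all genes called). It called 8 lower in no_induction_ABX against no_induction (31.1%) and 7 lower in vitiligo_ABX against vitiligo (13.1%), and none of the markers higher. Their summed level was 11217 to 13997 CPM in hippuric_acid and 29531 to 41078 CPM in vehicle, 10379 to 21455 CPM in no_induction_ABX and 20371 to 42818 CPM in no_induction, and 10996 to 18827 CPM in vitiligo_ABX and 16410 to 34649 CPM in vitiligo. No marker of the list was at 0 throughout a group. Of 10 basal keratinocyte markers, 4 were lower in hippuric_acid, 1 was higher in no_induction_ABX and none was called in vitiligo_ABX. The counts in no_induction_ABX and vitiligo_ABX are below those backgrounds. Pearson's r with the suprabasal level was 0.94 for Il36rn, 0.89 for Il36g, 0.87 for Il1rn, 0.86 for Il36a, 0.81 for Il36b and 0.80 for Il18, against 0.60 for Il1a, 0.41 for Il33 and 0.17 for Il1b. Taken as log2(CPM + 1) minus the suprabasal level, Il36rn averaged -2.42 ± 0.14 in hippuric_acid and -2.23 ± 0.22 in vehicle (SD), with overlapping groups. On the same scale Il18 averaged -4.95 ± 0.19 in hippuric_acid and -4.78 ± 0.21 in vehicle, Il36a -5.82 ± 0.12 and -5.63 ± 0.71, and Il36b -4.07 ± 0.17 and -4.19 ± 0.51, in the same order of groups. Il36g stayed lower relative to the markers, at -4.61 to -4.29 in hippuric_acid and -4.16 to -4.03 in vehicle. Il33 was higher relative to them, at -3.99 to -3.74 in hippuric_acid and -4.76 to -4.38 in vehicle. So were Il1a (-5.43 to -4.79 and -6.36 to -5.57) and Il1f10 (-6.16 to -5.34 and -7.82 to -6.20), also without overlap. Il1rn averaged -3.98 ± 0.18 and -4.34 ± 0.20, and Il1b -7.39 ± 0.85 and -8.01 ± 1.65, with overlapping groups. With ABX in induced skin Il18 averaged -4.46 ± 0.29, against -4.34 ± 0.26 in vitiligo. In no_induction_ABX and no_induction, Il36g averaged -4.79 ± 0.27 and -4.26 ± 0.15 and Il1f10 -7.23 ± 1.16 and -6.06 ± 0.41. Il1rn averaged -4.17 ± 0.17 and -4.07 ± 0.20 there, and Il36rn -2.65 ± 0.11 and -2.47 ± 0.20. Il1a averaged -5.75 ± 0.28 and -5.73 ± 0.38, and Il18, not called there, -4.50 ± 0.35 and -4.81 ± 0.24. All of these ABX pairs overlapped. No share over all genes was taken on this scale. Adipocyte markers also differed. Of 12, edgeR called 9 lower in hippuric_acid (median log2 fold change -2.14), 11 lower in no_induction_ABX (-3.06) and 11 lower in vitiligo_ABX (-3.55). In vitiligo against no_induction, with 7.74% of all genes called, 11 of these markers were higher (1.98). Their summed level was 409 to 1205 CPM in hippuric_acid and 2077 to 2593 CPM in vehicle, 395 to 713 CPM in no_induction_ABX and 674 to 1808 CPM in no_induction, and 435 to 1246 CPM in vitiligo_ABX, against 2578 to 6916 CPM in vitiligo, with none at 0 throughout a group. The part of the suprabasal layers and of fat in the results of the members was not tested.

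**Figure D5:**
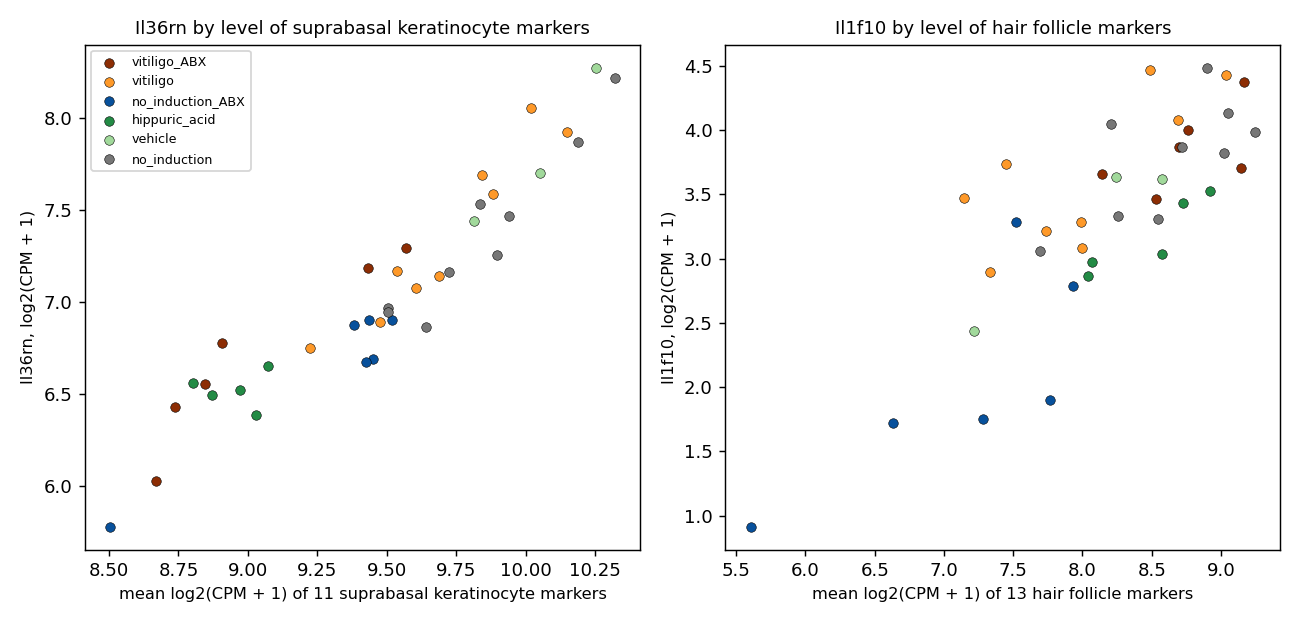
Left, log2(CPM + 1) of Il36rn against the mean log2(CPM + 1) of 11 suprabasal keratinocyte markers; right, the same for Il1f10 and 13 hair follicle markers. Points are the 38 libraries, coloured by group; r is 0.94 on the left and 0.81 on the right. The hippuric_acid libraries lie between 8.80 and 9.07 on the left axis and the no_induction_ABX libraries between 5.603 and 7.928 on the right one.

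Few receptors other than Il1rl1 passed the test. Of 8 measured receptor and binding protein genes, 1 was called in hippuric_acid against vehicle (13.8% of all genes), while 7 had an unadjusted p under 0.05. In no_induction_ABX against no_induction 2 were called (31.1% of all genes), so neither share is above its background, with Il1r1, the signalling IL-1 receptor, higher by 0.24 ± 0.07 (adjusted p = 0.0132) beside Il1rl1. In vitiligo_ABX against vitiligo 1 of 8 was higher (Il1rl1) and 1 lower (Il1r2), a share above the 13.1% of all genes called there. Il1r2, the decoy receptor for IL-1, fell to 15.0 to 27.7 CPM in vitiligo_ABX, against 23.4 to 51.9 CPM in vitiligo (-0.95 ± 0.17, adjusted p = 0.00155). edgeR called none in vitiligo against no_induction, in vitiligo_ABX against no_induction_ABX or in vehicle against no_induction (2, 0 and 0 at an unadjusted p under 0.05). Il1rl2, the IL-36 receptor gene, was not analysed here.

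Of 17 signalling genes, 2 were lower in hippuric_acid, 2 higher and 3 lower in no_induction_ABX, and 2 lower in vitiligo_ABX, each against its untreated counterpart. These shares do not exceed the 13.8%, 31.1% and 13.1% of all genes called in the same comparisons. Irak2, a kinase that sustains the response, was lower in each comparison of treated with untreated skin. Its log2 fold change was -0.73 ± 0.14 in hippuric_acid against vehicle (adjusted p = 0.00754), -0.41 ± 0.13 in no_induction_ABX against no_induction (adjusted p = 0.0230) and -0.62 ± 0.16 in vitiligo_ABX against vitiligo (adjusted p = 0.0148). Tollip, an adaptor that restrains the pathway, was also lower in hippuric_acid (-0.45 ± 0.10, adjusted p = 0.0134). In no_induction_ABX Tnfaip3, a brake on NF-kB, was higher (0.56 ± 0.13, adjusted p = 0.00406) and so was Irak3 (0.29 ± 0.09, adjusted p = 0.0176), while Irak4 was lower (-0.25 ± 0.08, adjusted p = 0.0295). Nfkbia, an NF-kB target and inhibitor, was lower in vitiligo_ABX against vitiligo (-0.50 ± 0.14, adjusted p = 0.0222), and the difference between the ABX effects was called for it (-0.73 ± 0.18, adjusted p = 0.00837).

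Among genes of processing and release, Pycard, the inflammasome adaptor ASC, was lower in hippuric_acid (53.7 to 61.4 CPM) than in vehicle (81.0 to 122 CPM), by -0.78 ± 0.13 on the log2 scale (adjusted p = 0.00338). It was also lower in no_induction_ABX (-0.46 ± 0.12, adjusted p = 0.00680) and in vitiligo_ABX (-0.53 ± 0.12, adjusted p = 0.0104), each against the same skin without ABX. Casp1, which cleaves IL-1β and IL-18, was lower in vitiligo_ABX against vitiligo (-0.65 ± 0.21, adjusted p = 0.0458). Gsdma, a pore-forming gasdermin of keratinocytes, was lower in no_induction_ABX (-0.90 ± 0.16, adjusted p = 0.000549) and in hippuric_acid (-0.35 ± 0.09, adjusted p = 0.0245), and Gsdma3, a close relative with which reads may be shared, in hippuric_acid (-1.76 ± 0.39, adjusted p = 0.0156). In all, 4 of 23 measured genes of this list were lower and 1 higher in hippuric_acid, 2 of 22 lower and 7 higher in no_induction_ABX, and 2 of 22 lower and none higher in vitiligo_ABX, where 13.8%, 31.1% and 13.1% of all genes were called. The vitiligo_ABX share is below its background. Of the 7 that were higher in no_induction_ABX, 4 are mast cell proteases (Cma1, Ctsg, Tpsb2 and Mcpt4), which were singled out after their values were seen.

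Of 22 genes that IL-1 or IL-36 induce in keratinocytes, 11 to 14 were abundant enough to test. In vitiligo against no_induction 3 of 11 were higher (7.74% of all genes), with no member called by edgeR: Vnn1 (1.73 ± 0.29, adjusted p = 0.000720), Cxcl1, a neutrophil chemokine (1.58 ± 0.33, adjusted p = 0.00535), and Ptgs2, which makes prostaglandins (1.82 ± 0.42, adjusted p = 0.0109). Cxcl1 was low, with medians of 2.45 CPM in vitiligo and 0.914 CPM in no_induction. Vnn1 was low as well, with means of 1.90 CPM in vitiligo, 0.571 in no_induction, 0.222 in no_induction_ABX and 0.507 in vitiligo_ABX. In the same comparison 5 of 8 Langerhans and dendritic cell markers, 1 of 7 T cell markers and 1 of 13 macrophage and monocyte markers were called higher, with none lower. The summed level of the Langerhans and dendritic cell markers spanned 556 to 1649 CPM over the vitiligo libraries and 534 to 1024 CPM over those of no_induction. No measured one was at 0 throughout a group, and the part of these cells in the target gene results was not tested. In hippuric_acid against vehicle edgeR called none of 14 target genes (13.8% of all genes, 4 targets at an unadjusted p under 0.05), with 7 members lower. In no_induction_ABX against no_induction 2 of 13 were higher and 2 lower, which is not above the 31.1% of all genes called there. The higher ones were Cxcl1 (1.41 ± 0.25, adjusted p = 0.000607) and Ptgs2 (1.62 ± 0.35, adjusted p = 0.00230). The lower ones were S100a8 (-2.18 ± 0.57, adjusted p = 0.0100) and Vnn1 (-1.34 ± 0.46, adjusted p = 0.0333). In vitiligo_ABX against vitiligo 2 of 12 were higher and 1 lower, where 13.1% of all genes were called. Tnf (0.94 ± 0.29, adjusted p = 0.0399) and Krt6a (0.93 ± 0.29, adjusted p = 0.0424) were higher and Vnn1 lower (-1.89 ± 0.38, adjusted p = 0.00397).

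Ordered by group mean, vehicle skin had the highest level of 7 members (Il1a, Il1b, Il36a, Il36b, Il36g, Il36rn and Il33), vitiligo of Il18, no_induction of Il1rn and vitiligo_ABX of Il1f10. For 3 of these 7 the place rested on vehicle 001. Without it, a choice made after seeing the data, the vehicle mean was 1.03 CPM for Il1b, 14.8 CPM for Il36a and 46.2 CPM for Il36b, and the highest means were those of vitiligo_ABX, vitiligo and no_induction, in that order of genes. The lowest mean was that of hippuric_acid for Il36a, Il36b, Il36rn, Il18, Il33 and Il1rn, and of no_induction_ABX for Il1a, Il1b, Il36g and Il1f10. In each of the 50 pairs of neighbours in these orders the ranges overlapped. The gap between neighbouring means exceeded the larger of the 2 SDs in 4 pairs: Il36b in vitiligo_ABX below no_induction_ABX, Il18 in hippuric_acid below vitiligo_ABX, Il36rn in vitiligo_ABX below vitiligo, and Il1f10 in no_induction_ABX below hippuric_acid.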

How the data were processed

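Per the labels' protocols, RNA of mouse tail skin was extracted with Trizol, selected with oligo(dT), converted to libraries (NEBNext Ultra) and read on a NovaSeq instrument. Estimated counts of every gene in 38 libraries stood in the single table that the authors deposited. HISAT2, StringTie 1.3.1, Bowtie2 2.2.8 and DESeq2 were listed, per the submitters' processing notes. Genome build, annotation, counting and strand setting are not given in the sources used here, so overlapping or near-identical genes may share counts. Of 19220 table entries, 2 that were incomplete or had no symbol were left out. Values were not whole in 3107 of 19218 genes (16.2%), none of them a member, and were rounded, which moved a library total by at most 20.1. Totals ran from 15341838 to 27920853 counts, and no 2 libraries of a group agreed within sampling noise (lowest chi-square per degree of freedom 7.58).

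Each comparison was fitted with edgeR 4.0.16 in R 4.3.3 (TMM, filterByExpr, robust quasi-likelihood F test, two-sided) on the libraries of its groups, with Benjamini-Hochberg adjustment over all genes tested and a threshold of 0.05. The difference between the ABX effects was an interaction term over the 4 groups concerned. Fits were tested on simulated data. Errors of log2 fold changes are the fold change divided by the square root of F. CPM used TMM totals over all libraries. CPM per kb used summed exon lengths of a mouse annotation that may not be the one the authors used. The level of a list is the mean log2(CPM + 1) of its genes. Promoters came from RefSeq, GRCm38.p6.

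Alternatives were DESeq2 1.42.0, limma-voom (limma 3.58.1), RLE size factors, no or a stricter count filter, a block for library number, every library left out in turn, and a joint fit of all 38 libraries. Fits without the 3 libraries with Y-linked transcripts, and without the 5 with the highest gastrointestinal markers, were chosen after seeing the data. All members are named. Of the pathway lists, at most 4 called genes per list and comparison with the smallest p are named, beside 4 mast cell proteases named after their values were seen, and for each member the 3 genes with the highest correlation. For Il1b, 1 of these is not reported here. The members and lists were chosen with earlier results of these data known.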

Additional observations from a re-analysis of the deposited data

Results flagged for a closer look

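In 4 of the 50 groups of 4 to 10 values tested, 1 library lay farther from its nearest neighbour than Dixon's critical value allows. Chance gives this in about 1 group in 20. Il1b was at 11.3 CPM in vitiligo_ABX 001, and the next library of that group was at 3.62 CPM. Il36a was at 9.14 CPM in hippuric_acid 1, with the next at 7.70 CPM. Il36b was at 13.1 CPM in vitiligo_ABX 003, below the next lowest at 28.9 CPM. Il36rn was at 53.9 CPM in no_induction_ABX 006, below the next lowest at 101 CPM.

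The ABX effect on Il1f10 differed between induced and uninduced mice by a log2 difference of 1.94 in the test of the interaction (edgeR adjusted p = 0.00789).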

How the results depend on the processing

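Of 1673 values of single genes under an alternative, 1514 kept their direction and side of the threshold, 20 lost a call, 24 gained one, 115 changed sign without having been called, and 0 called values changed sign. In vitiligo against no_induction the count of members called was 2 by limma-voom (42.6% of all genes), against 0. It was 1 without the libraries with Y-linked transcripts, where 1364 genes were called. In vitiligo_ABX against vitiligo the count was 5 by limma-voom (31.4% of all genes) and 3 by DESeq2 (17.4%), against 1 (13.1%). It was 2 with all 38 libraries in one fit (2811 genes), and ran from 1 to 3 without any 1 library (3 without vitiligo_ABX 002). In vitiligo_ABX against no_induction_ABX it ran from 0 to 1 without any 1 library (228 to 863 genes). For the interaction it was 2 by limma-voom (4443 genes called) and 2 without the Y-linked libraries (1810), against 1 (1639 of 14310 genes tested). Both alternatives thus also called more of all genes. The causes were not tested.

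Counts over all genes also moved. In vitiligo against no_induction 1070 became 5895 by limma-voom, 1745 by DESeq2, 1683 in the joint fit, 511 without the gastrointestinal libraries, and 688 without no_induction 023 to 2572 without vitiligo 001. In vitiligo_ABX against vitiligo 1837 became 4403 by limma-voom, 2811 in the joint fit, 961 without the gastrointestinal libraries, and 1185 to 2803 without any 1 library. In no_induction_ABX against no_induction 4351 became 6564 by limma-voom. In vitiligo_ABX against no_induction_ABX 689 became 1283 by DESeq2, 1530 by limma-voom, and 228 without no_induction_ABX 002. In hippuric_acid against vehicle 1940 became 1149 without hippuric_acid 3 and 2786 without vehicle 001. The interaction's 1639 became 4443 by limma-voom and 2680 without vitiligo 001.

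Library numbers are shared between groups, and the labels do not say whether same-numbered libraries belong together. They did not deviate together in every pair (r from -0.15 to 0.39 in no_induction_ABX against no_induction). There 2 of 4 numbers matched best with themselves, and 2 of 3 in hippuric_acid against vehicle. So few pairs cannot settle whether the numbers mark a pairing. With the replicate block the count of members called was 2 in no_induction_ABX against no_induction, 5 in hippuric_acid against vehicle, 1 in vitiligo_ABX against vitiligo, 1 in vitiligo_ABX against no_induction_ABX and 0 in vehicle against no_induction. Counts over all genes were 1435, 887, 158, 793 and 6 in the same order. No paired analysis was possible for vitiligo against no_induction because 1 number was shared. Depth limits Il1b most, with as few as 5 counts in a library.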
